A study of Arabidopsis thaliana with 6 samples.

Results

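The cold and drought protective COR genes are 10 Arabidopsis thaliana genes whose transcripts accumulate in cold, drought or abscisic acid treatment. They were chosen by gene identifier, not by their values in these libraries, and are RD29A (gene-AT5G52310 in the files), RD29B (gene-AT5G52300), RAB18 (gene-AT5G66400), COR15A (gene-AT2G42540), COR15B (gene-AT2G42530), KIN1 (gene-AT5G15960), KIN2 (gene-AT5G15970), COR47 (gene-AT1G20440), ERD10 (gene-AT1G20450) and LTI30 (gene-AT3G50970), out of 38189 genes in the count tables. RNA was sequenced from 10-day-old seedlings of the Columbia wild type (WT, n = 3) and of the hb34 mutant in the Columbia background (n = 3). Both groups grew on Murashige and Skoog medium at 22 °C in long days of 16 h light, and both were labelled mock, with no cold, drought or hormone treatment named. The labels call the tissue leaves, while the extraction protocol speaks of seedlings. HB34 is a homeobox factor of the zinc finger homeodomain kind, and the study asked how it tunes jasmonic acid production between defence and growth. No source used here gives the kind of hb34 allele, the number of mutant lines or whether replicates were separate plant pools, so p-values measure the spread between these libraries only.

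The libraries held 17562497 to 19670468 counts. HB34 itself checked the labels: it had 83.3, 91.7 and 93.1 CPM (counts scaled to a common total, with library sizes scaled by TMM) in WT replicates 1, 2 and 3 and 1.02, 2.27 and 1.18 CPM in hb34. The limit that a count of 0 allows, 3 counts, was 0.153 to 0.178 CPM and covers counting error only. The 4 leaf markers summed to 39680 to 46270 CPM in all libraries. The 10 root markers summed to 51.5 to 84.7 CPM, most of it from SCR at 47.2 to 78.8 CPM. Whether the SCR reads came from root tissue was not tested. Of these 10 root markers, 4 had no read in any library and 2, SCR among them, had enough counts for edgeR. Another of them, PYK10, a glucosidase of root endoplasmic reticulum bodies, had 1, 0 and 0 counts in WT against 5, 33 and 23 in hb34, and its part in the COR results was not tested. Of 7 seed markers, 5 had no read and 0 could be tested. Among the mutant libraries, hb34 replicate 2 stood apart from the others: 10 rapid touch and wound genes summed to 2439 CPM there, 1281 CPM in hb34 replicate 3, 348.8 CPM in hb34 replicate 1 and 521.2 to 643.5 CPM in WT. For the genes named from here on, values without hb34 replicate 2 are given where its removal changed a call or a sign, and for some further genes. The bulk libraries cannot tell fewer cells of a type from less RNA per cell.

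Cold and drought are known to switch these genes on by partly different routes. In cold, CBF transcription factors (also called DREB1 factors) bind the C-repeat or dehydration-responsive element, whose core is CCGAC. A drought route, not the only possible route, runs through abscisic acid, which releases SnRK2 kinases from clade A phosphatases. The kinases activate ABF bZIP factors, which bind the abscisic acid responsive element with the core ACGTG. The proteins made are mostly very hydrophilic and largely unstructured, and are thought to shield membranes and enzymes during dehydration. They differ in size, with coding sequences from 201 bases for KIN1 and KIN2 to 2133 bases for RD29A. COR47, ERD10, RAB18 and LTI30 are dehydrins. COR15A and COR15B act in the chloroplast stroma at the inner envelope. KIN1 and KIN2 are small hydrophilic proteins, and the molecular action of RD29A and RD29B is less clear.

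Of the 10 genes, 8 lie in 4 tandem pairs. The bases between the 2 genes of a pair numbered 1185 for RD29B and RD29A, 7 for COR15B and COR15A, 892 for KIN1 and KIN2 and 1029 for COR47 and ERD10, with both genes on the same strand in every pair. The coding sequences of a pair were 59.8% identical for RD29A and RD29B, 73.5% for COR47 and ERD10, 82.6% for COR15A and COR15B and 95% for KIN1 and KIN2. The KIN coding sequences are shown because such closeness could mix up their counts. Each has 201 bases, on the plus strand of chromosome 5 in RefSeq's TAIR10.1, and capitals mark the 10 positions that differ.
KIN1: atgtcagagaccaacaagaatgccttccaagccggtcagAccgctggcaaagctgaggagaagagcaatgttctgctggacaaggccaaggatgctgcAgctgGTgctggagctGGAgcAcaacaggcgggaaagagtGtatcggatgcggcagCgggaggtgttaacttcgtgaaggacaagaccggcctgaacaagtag
KIN2: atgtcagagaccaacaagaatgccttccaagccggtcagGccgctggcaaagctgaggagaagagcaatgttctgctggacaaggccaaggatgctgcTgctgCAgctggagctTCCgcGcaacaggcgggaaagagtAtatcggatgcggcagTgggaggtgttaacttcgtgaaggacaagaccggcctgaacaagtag
Of the 682 windows of 50 bases within a KIN1 exon, 1 occurred elsewhere in the genome, as did 1 of 603 for KIN2 and 0 for each of the other 8 genes. No source used here says how reads with several matches were counted.

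The 300 bases before the annotated start differ in these elements, and 5 windows are shown 5′ to 3′ on the gene's strand: those of RD29A, the only one of the 10 genes that passed the test below, of its neighbour RD29B, of COR15A, and of COR47 with ERD10. Capitals mark CCGAC and ACGTG on either strand, so GTCGG and CACGT are marked too. Sequences and coordinates are from RefSeq's TAIR10.1.
RD29A, chr5:21240417-21240716, plus strand: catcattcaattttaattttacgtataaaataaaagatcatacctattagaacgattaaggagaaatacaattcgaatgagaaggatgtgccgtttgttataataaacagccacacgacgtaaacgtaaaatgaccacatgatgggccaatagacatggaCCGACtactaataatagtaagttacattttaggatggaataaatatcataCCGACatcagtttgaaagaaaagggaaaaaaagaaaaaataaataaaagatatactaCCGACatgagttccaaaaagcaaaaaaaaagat
RD29B, chr5:21236721-21237020, plus strand: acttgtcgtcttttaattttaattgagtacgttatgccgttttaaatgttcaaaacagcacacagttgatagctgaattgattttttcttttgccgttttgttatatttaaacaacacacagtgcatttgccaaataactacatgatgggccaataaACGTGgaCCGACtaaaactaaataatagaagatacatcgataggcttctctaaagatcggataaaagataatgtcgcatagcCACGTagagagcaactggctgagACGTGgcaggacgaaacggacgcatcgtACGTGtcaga
COR15A, chr2:17712331-17712630, minus strand: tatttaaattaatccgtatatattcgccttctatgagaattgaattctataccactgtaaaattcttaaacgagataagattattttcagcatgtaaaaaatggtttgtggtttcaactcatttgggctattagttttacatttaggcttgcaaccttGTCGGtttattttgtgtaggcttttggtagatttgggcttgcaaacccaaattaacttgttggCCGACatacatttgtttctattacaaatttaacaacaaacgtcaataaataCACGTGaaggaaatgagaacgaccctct
COR47, chr1:7086874-7087173, minus strand: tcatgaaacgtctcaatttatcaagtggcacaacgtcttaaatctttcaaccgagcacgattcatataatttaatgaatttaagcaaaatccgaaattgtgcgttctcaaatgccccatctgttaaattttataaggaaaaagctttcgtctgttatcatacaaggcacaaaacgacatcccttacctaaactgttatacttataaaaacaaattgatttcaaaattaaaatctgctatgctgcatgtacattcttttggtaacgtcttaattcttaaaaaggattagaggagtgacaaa
ERD10, chr1:7089607-7089906, minus strand: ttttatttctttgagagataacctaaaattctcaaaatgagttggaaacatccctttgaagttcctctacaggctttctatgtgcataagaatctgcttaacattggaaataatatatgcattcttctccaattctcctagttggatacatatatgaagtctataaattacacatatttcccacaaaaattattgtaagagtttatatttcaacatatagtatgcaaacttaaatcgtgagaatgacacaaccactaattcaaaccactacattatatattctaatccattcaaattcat
Only bases before the annotated start were searched, so a motif after it would be missed. RD29A has 2663 exon bases against 2133 coding bases, so noncoding exon bases lie outside its window. In that window RD29A had 3 CCGAC, beginning 140, 90 and 33 bases before the start. It had 0 ACGTG there, which does not show that the gene lacks this element. Its neighbour RD29B had 1 CCGAC and 4 ACGTG. COR15A had 2 CCGAC and a CACGTG, which reads as ACGTG on both strands. COR47 and ERD10 had neither motif in these letters of this window. They have 2320 and 1624 exon bases against 798 and 783 coding bases, and their own exons were not searched. Across the 10 genes 5 windows held CCGAC and 5 held ACGTG, against 13.9% and 25.6% of 27443 windows of the same length before protein-coding genes. The core ATTA bound by zinc finger homeodomain proteins occurred in all 10 windows, as it did in 98.6% of the 27443. The windows of COR15B and RAB18 lie wholly or mostly in exons of a neighbouring gene, and that of LTI30 in part.

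RD29A was higher in the mutant and was the only COR gene that passed the test. RD29A (AT5G52310, also called LTI78 or COR78, chromosome 5, 21240717 to 21243644, plus strand) had 466, 323 and 375 counts in WT replicates 1, 2 and 3 and 756, 898 and 652 in hb34. That is 24.7, 19.2 and 19.2 CPM in WT against 40.6, 47.4 and 33.5 in hb34. All 3 mutant libraries lay above all 3 WT libraries, an arrangement shown by 17.8% of the 17905 genes tested. The WT mean was 21.0 ± 3.20 CPM and the hb34 mean 40.5 ± 6.94 CPM (SD, n = 3 each), a 1.93-fold difference (log2 fold change 0.95, SE 0.175, hb34 minus WT throughout; edgeR quasi-likelihood adjusted p = 0.0296). Without hb34 replicate 2 the log2 fold change was 0.82 (edgeR adjusted p = 0.0217). Its call was lost without any 1 of the 3 WT libraries (edgeR adjusted p 0.0614 to 0.14), while the log2 fold change stayed between 0.89 and 1.09.

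Its tandem neighbour RD29B (AT5G52300, chromosome 5, 21237021 to 21239531), a gene known for a strong response to abscisic acid, was almost silent. RD29B had 0, 3 and 0 counts in WT against 3, 1 and 3 in hb34. These 10 counts, at or under 3 in each library, were too few to be tested, so no difference was detectable at this depth. The pair thus held RD29A at 19.2 to 47.4 CPM and RD29B at or under 3 counts in the same libraries.

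**Figure D1:**
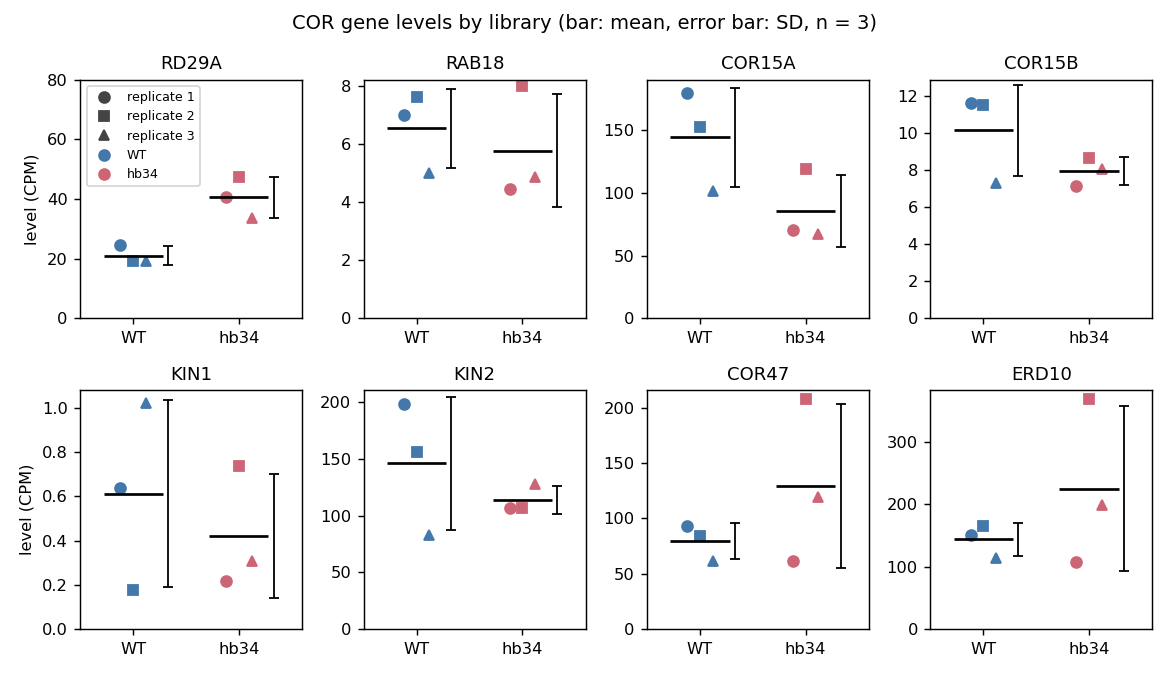
Level of each of the 8 tested COR genes in CPM (y axis, starting at 0) in the 3 WT and 3 hb34 libraries, with a marker shape per replicate; horizontal bars are means and error bars SD (n = 3). RD29A has groups that do not overlap (at most 24.7 CPM in WT, at least 33.5 CPM in hb34), and COR47 and ERD10 are highest in hb34 replicate 2.

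The COR15 genes had lower means in the mutant, and neither passed the test with all libraries. COR15A (AT2G42540, chromosome 2, 17710441 to 17712330, minus strand) had 179.4, 152.3 and 101.6 CPM in WT against 70.7, 118.7 and 67.45 in hb34. The groups overlapped through hb34 replicate 2, which lay above WT replicate 3. The log2 fold change was -0.75 (SE 0.276, unadjusted p = 0.027, edgeR adjusted p = 0.123). Without hb34 replicate 2 it was -1.06 (SE 0.217) and passed (edgeR adjusted p = 0.0235). DESeq2 gave an adjusted p of 0.0575 with all libraries.

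COR15B (AT2G42530, chromosome 2, 17708593 to 17710433, minus strand) had 11.6, 11.5 and 7.31 CPM in WT against 7.14, 8.66 and 8.07 in hb34. The mutant values lay within or just below the WT range (log2 fold change -0.35, SE 0.215, edgeR adjusted p = 0.311). COR15B overlaps AT2G42520 on the opposite strand by 468 bases, and AT2G42520 had 13.3 to 18.3 CPM in the 6 libraries. No source used here gives the strand setting of the counting, so reads of the overlap cannot be assigned. Per length, COR15A exceeded COR15B by 15.5, 13.2 and 13.9 times in WT and by 9.90, 13.7 and 8.36 times in hb34. That ratio was lower in hb34 replicates 1 and 3 than in any WT library, whereas hb34 replicate 2 fell inside the WT range.

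KIN1 and KIN2, alike in their coding sequences, differed in level by a factor of 90.0 to 970.5 per length within a library. KIN2 (AT5G15970, also called COR6.6, chromosome 5, 5211719 to 5212743, plus strand) had 198.6, 156.2 and 83.2 CPM in WT against 106.9, 106.7 and 128.2 in hb34. All mutant values fell inside the wide WT range (log2 fold change -0.36, SE 0.284, edgeR adjusted p = 0.424). Between the WT libraries alone KIN2 thus differed more than between the group means of 146.0 and 113.9 CPM. Without WT replicate 3, its lowest library, the log2 fold change was -0.63 (SE 0.156; edgeR adjusted p = 0.0722), and without WT replicate 1, its highest, it was -0.06.

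KIN1 (AT5G15960, chromosome 5, 5209717 to 5210826, plus strand) had 12, 3 and 20 counts in WT against 4, 14 and 6 in hb34. It passed the filter on low counts, but its groups overlapped throughout (log2 fold change -0.57, SE 0.699, edgeR adjusted p = 0.599). Its sign was not stable either: without WT replicate 3 the log2 fold change was 0.02, and without hb34 replicate 2 it was -1.24.

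The dehydrin pair COR47 and ERD10 had the same order of hb34 libraries and did not pass the test. COR47 (AT1G20440, chromosome 1, 7084409 to 7086873, minus strand) had 93.0, 84.5 and 61.1 CPM in WT against 61.3, 208.2 and 119.0 in hb34. ERD10 (AT1G20450, chromosome 1, 7087903 to 7089606, minus strand) had 151.6, 165.9 and 113.6 CPM in WT against 107.5, 369.3 and 199.1 in hb34. Both genes were highest in hb34 replicate 2, next in hb34 replicate 3, and in hb34 replicate 1 lay close to or below the lowest WT level.

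Their log2 fold changes were 0.70 (SE 0.396, edgeR adjusted p = 0.269) for COR47 and 0.65 (SE 0.396, edgeR adjusted p = 0.304) for ERD10. Without hb34 replicate 2 they were 0.18 (SE 0.266) and 0.10 (SE 0.248), with edgeR adjusted p of 0.696 and 0.838. Without hb34 replicate 1 they were 1.04 and 0.98, with edgeR adjusted p of 0.0665 and 0.0783. Per length, ERD10 exceeded COR47 by 2.33 to 2.80 times in the 6 libraries, and that ratio overlapped between the groups (2.33, 2.80 and 2.66 in WT, 2.50, 2.53 and 2.39 in hb34). The order of hb34 libraries, replicate 2 above replicate 3 above replicate 1, was also that of the summed touch and wound genes, whose part in these levels was not tested.

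RAB18 and LTI30, the dehydrins outside a tandem pair of members, were low. RAB18 (AT5G66400, chromosome 5, 26518277 to 26519447, minus strand), a classical abscisic acid marker, had 6.998, 7.65 and 5.01 CPM in WT against 4.45, 8.02 and 4.88 in hb34. The groups overlapped (log2 fold change -0.17, SE 0.279, edgeR adjusted p = 0.697). Its annotation overlaps AT5G66410 on the opposite strand by 11 bases. LTI30 (AT3G50970, also called XERO2, chromosome 3, 18940643 to 18941611, plus strand) had 17, 2 and 7 counts in WT against 8, 7 and 4 in hb34, too few to be tested.

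**Figure D2:**
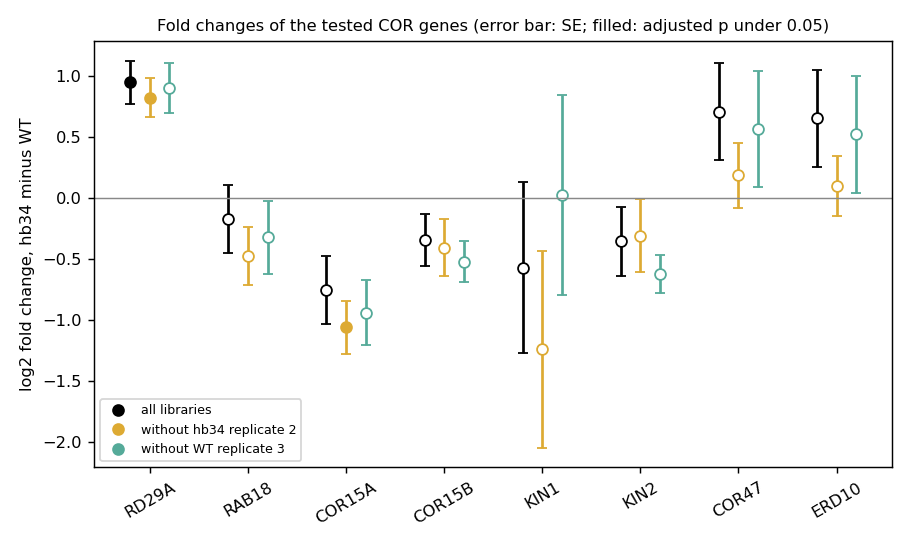
Log2 fold change (y axis, hb34 minus WT) of the 8 tested COR genes in edgeR with all libraries, without hb34 replicate 2 and without WT replicate 3; error bars are SE and filled points have an adjusted p under 0.05. RD29A lies between 0.82 and 0.95 in the 3 fits, COR15A is filled only without hb34 replicate 2, and COR47 and ERD10 drop to 0.18 and 0.10 in that fit.

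Counted together, 8 of the 10 COR genes had enough counts for the edgeR test, 1 was higher in the mutant and 0 were lower. At an unadjusted p under 0.05 there were 2, RD29A higher and COR15A lower, and DESeq2 and limma-voom each also called 1 higher and 0 lower. An unadjusted p under 0.05 was reached by 29.7% of all genes tested, 16.5% higher and 13.3% lower, so 2 of 8 is near that background. DESeq2 called 9.08% of its genes higher and 5.56% lower, and limma-voom 3.36% and 2.33%, shares against which the counts by these tools below are to be read. Over all 17905 genes tested, 6.27% were called, 3.77% higher and 2.5% lower (675 and 447 genes, or 536 and 615 with upper quartile scaling). A single call is too few to set the COR genes apart from that background. Among the 8, 3 had a positive and 5 a negative log2 fold change, with a median of -0.26, beside 0.01 for all genes tested. The groups did not overlap for 1 of the 8, against 35.3% of all genes tested. Without hb34 replicate 2 the count was 1 higher and 1 lower. In that fit 853 genes were higher and 503 lower of 18162 tested, the background also for later counts without that library.

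On the TPM scale, which divides counts by exon length and sets each library to a common total, KIN2 was the most abundant COR transcript in WT at 288.9 ± 114.4 TPM (SD, n = 3). COR15A followed with 135.5 ± 35.97 TPM and ERD10 with 131.3 ± 20.5 TPM, and the ranges of COR15A and ERD10 overlapped, whereas KIN2 (170.9 to 399.2 TPM) lay above both. COR47 came next at 51.0 ± 9.95 TPM, then RD29A at 11.8 ± 1.96 TPM, COR15B at 9.50 ± 2.103 TPM and RAB18 at 8.93 ± 1.604 TPM. The range of COR15B overlapped those of both RD29A and RAB18, whereas RD29A lay above RAB18 (10.25 to 13.98 TPM against 7.08 to 10.01 TPM). KIN1, LTI30 and RD29B had at most 1.90 TPM in any library.

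The mean levels in hb34 stood in another order. KIN2 was at 242.1 ± 27.1 TPM, ERD10 at 219.1 ± 124.8 TPM, COR47 at 88.2 ± 48.6 TPM and COR15A at 85.8 ± 26.9 TPM (SD, n = 3 each), and the ranges of KIN2 and ERD10 overlapped, as did those of COR47 and COR15A. RD29A, at 24.2 ± 3.85 TPM in the mutant, stood clear of RAB18 (8.43 ± 2.64 TPM) and COR15B (7.99 ± 0.597 TPM). ERD10 exceeded COR15A per length in 3 of 3 mutant libraries and in 2 of 3 WT libraries. KIN2 was the highest of the 10 in 5 of 6 libraries, and ERD10 was the highest in hb34 replicate 2. All 10 genes summed to 445.7 to 808.2 TPM in WT and 495.6 to 881.6 TPM in hb34, so the groups overlapped in total.

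A ratio within a library does not depend on library scaling, and RD29A was set against the 6 other COR genes with at least 4 CPM in each library, a comparison chosen after the values were seen and given without a test. RD29A relative to COR15A, per length, was 0.0819, 0.0748 and 0.112 in WT and 0.341, 0.237 and 0.296 in hb34. Relative to RAB18 it was 1.44, 1.02 and 1.56 in WT and 3.72, 2.42 and 2.81 in hb34. In all, 4 of the 6 ratios were higher in each mutant library than in each WT library, those to RAB18, COR15A, COR15B and KIN2. The ratios to COR47 and ERD10 overlapped between the groups. The 6 ratios share RD29A, and its ratio to 69.3% of the 17863 other tested genes with a read in every library was likewise higher in all mutant libraries, so 4 of 6 is near that background.

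**Figure D3:**
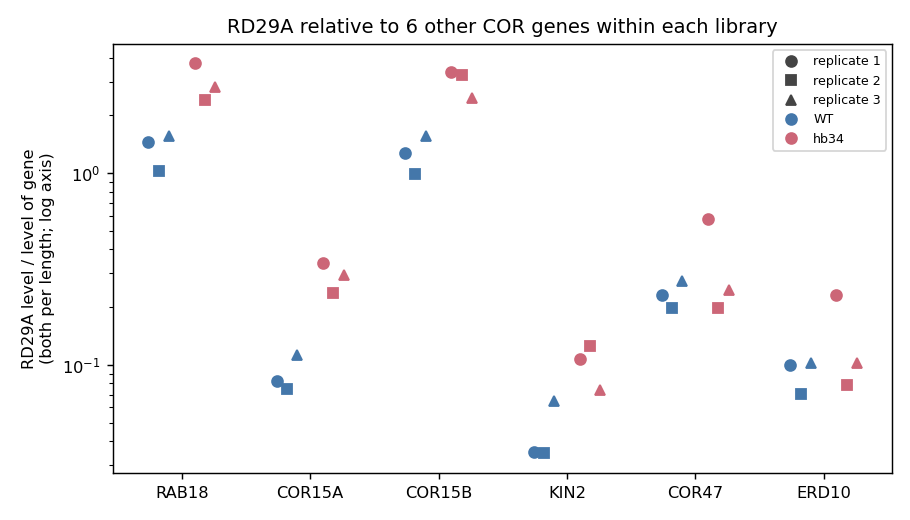
Level of RD29A divided by the level of 6 other COR genes, both per length, in each library (log y axis; colour marks the genotype and shape the replicate). The mutant points lie above all WT points for RAB18, COR15A, COR15B and KIN2 and mix with them for COR47 and ERD10.

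The CBF factors, activators of the COR genes in cold, varied between libraries without separating the genotypes. CBF1 had 5.35, 3.14 and 1.69 CPM in WT against 1.72, 4.65 and 12.9 in hb34. CBF2 had 19.4, 19.1 and 14.0 CPM in WT against 7.35, 8.29 and 45.0 in hb34. Both were thus highest in hb34 replicate 3. How these levels relate to those of the COR genes was not tested.

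Of 8 CBF and DREB factor genes, 6 were tested and 0 passed in either direction with edgeR (0 also at an unadjusted p under 0.05, and 0 with DESeq2 and limma-voom). The smallest p belonged to CEJ1, an AP2 gene, and RAP2.1, a repressor of this family's targets. CEJ1 reached 12.8 CPM in hb34 replicate 2 and no more than 0.771 CPM in the others, and without that library its log2 fold change went from 3.69 to 0.19. RAP2.1 ranged over 4.96 to 8.30 CPM in WT and over 4.08 to 5.60 CPM in the mutant. Of 13 known regulators of CBF expression, all tested, 0 passed with edgeR (6 up and 1 down by an unadjusted p under 0.05), while DESeq2 called 2 higher and limma-voom 0. CAMTA3, a calmodulin-binding activator, had a log2 fold change of 0.98 (SE 0.291, edgeR adjusted p = 0.0806), and ICE2, an activator of CBF genes in cold, one of -0.41 (SE 0.128, edgeR adjusted p = 0.0892). Without hb34 replicate 2 CAMTA3 passed at 0.56 (edgeR adjusted p = 0.0495).

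Other cold-inducible or freezing tolerance genes were called in both directions. Of 17 such genes 14 were tested, and 2 rose and 2 fell. BAM3, a plastid beta-amylase, rose from 715.2, 713.7 and 833.0 CPM in WT to 1289, 1165 and 1259 CPM in the mutant (log2 fold change 0.71, SE 0.105, edgeR adjusted p = 0.0169). COR413IM1, a chloroplast inner envelope protein, fell from 38.8, 34.0 and 28.2 CPM to 16.3, 12.4 and 19.1 CPM (log2 fold change -1.08, SE 0.197, edgeR adjusted p = 0.0285). The other calls, named because they make up the count, were SFR2, a galactolipid remodelling enzyme of freezing tolerance, which rose (0.47, edgeR adjusted p = 0.0449), and COR413-PM1, which fell (-0.49, edgeR adjusted p = 0.0484). Leaving out hb34 replicate 2 gave 2 higher and 1 lower, the latter COR413IM1.

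Among 16 further late embryogenesis abundant (LEA) genes, 7 had enough counts and 1 rose. It was SAG21, a mitochondrial LEA protein, with 90.3, 78.3 and 73.8 CPM in WT against 125.6, 201.5 and 144.3 in hb34 (log2 fold change 0.96, SE 0.187, edgeR adjusted p = 0.0333). LEA27 had a log2 fold change of -1.27 at 0.528 to 2.04 CPM (edgeR adjusted p = 0.0554). ERD14, the dehydrin closest in kind to COR47 and ERD10, had 280.3, 282.8 and 211.6 CPM in WT against 220.3, 542.6 and 329.8 in hb34 (edgeR adjusted p = 0.303), with the same order of hb34 libraries as those 2 genes. ERD14 was named for that likeness after its values were seen.

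Genes of abscisic acid synthesis and catabolism included 1 that rose among 10 tested of 13. It was BGLU18, a glucosidase that releases abscisic acid from its glucose ester, with 63.8, 60.9 and 52.2 CPM in WT against 171.9, 282.7 and 159.8 in hb34 (log2 fold change 1.80, SE 0.229, edgeR adjusted p = 0.0125). AAO3, the aldehyde oxidase of the last step, had a log2 fold change of 0.53 (edgeR adjusted p = 0.0751). DESeq2 called 4 genes of this list higher and limma-voom 1, and 0 were lower in either. With hb34 replicate 2 left out edgeR called 2 higher. With all libraries, 9 of the 10 tested genes had a positive and 1 a negative log2 fold change. By an unadjusted p under 0.05, 4 of them were up and 0 down.

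Downstream of the hormone, 2 receptor genes fell and 1 phosphatase gene rose. Of 14 abscisic acid receptor genes 8 were tested, 4 with a positive and 4 with a negative log2 fold change. Their median was 0.0009, and 1 was up and 2 were down by an unadjusted p under 0.05. PYL1 fell from 29.7, 28.9 and 25.9 CPM to 16.9, 17.5 and 19.8 CPM (log2 fold change -0.64, SE 0.131, edgeR adjusted p = 0.0366). PYL4 fell from 99.03, 92.2 and 104.0 CPM to 59.3, 27.7 and 44.2 CPM (-1.17, SE 0.249, edgeR adjusted p = 0.0399). Of 9 clade A phosphatases, which the receptors inhibit, 7 were tested and HAI1 rose from 4.03, 3.32 and 3.58 CPM to 7.73, 10.13 and 6.79 CPM (1.17, SE 0.213, edgeR adjusted p = 0.0285). AHG3 of the same list had a log2 fold change of 0.41 (edgeR adjusted p = 0.141). The median of the 7 phosphatase genes was 0.20, with 2 up and 0 down by an unadjusted p under 0.05.

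Of 10 genes for SnRK2 kinases and bZIP factors of the pathway, 7 were tested and 0 passed with edgeR (0 by an unadjusted p under 0.05, and 0 with DESeq2 and limma-voom). SNRK2.3 (0.59, edgeR adjusted p = 0.329) and ABF4 (0.17, edgeR adjusted p = 0.487) had the smallest p there, and without hb34 replicate 2 the log2 fold change of SNRK2.3 was 0.05. The median log2 fold change of these 7 genes was 0.09.

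Of 14 other genes responsive to abscisic acid or drought, 13 were tested, 2 rose and 0 fell (8 up and 0 down by an unadjusted p under 0.05), and DESeq2 called 6 higher, limma-voom 2 and neither any lower. RD20, a caleosin of lipid droplets, rose from 68.4, 84.7 and 76.3 CPM to 151.0, 210.0 and 146.8 CPM (log2 fold change 1.15, SE 0.168, edgeR adjusted p = 0.0169). ERD1, a chloroplast Clp chaperone, rose from 57.7, 92.3 and 108.9 CPM to 168.4, 180.5 and 153.3 CPM (0.96, SE 0.22, edgeR adjusted p = 0.048). The median of the 13 was 0.83, beside -0.26 for the COR genes and 0.01 for all genes tested. Whether these lists differ was not tested. By library, the 13 had a median log2 difference from WT means of 0.399, 1.11 and 0.701 in hb34 replicates 1, 2 and 3. The calls of BAM3, COR413IM1, SAG21, BGLU18, PYL1, PYL4, HAI1, RD20, ERD1 and the clock gene PRR7, as that of RD29A, were lost without WT replicate 1 and without WT replicate 2, when 3 and 4 genes passed in the whole table. Without WT replicate 3 those of SAG21, PYL1, PYL4 and HAI1 were lost too (edgeR adjusted p 0.05265 to 0.0776). PYL1 and ERD1 were also lost without hb34 replicate 1, and SAG21, PYL1, PYL4 and ERD1 without hb34 replicate 3.

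**Figure D4:**
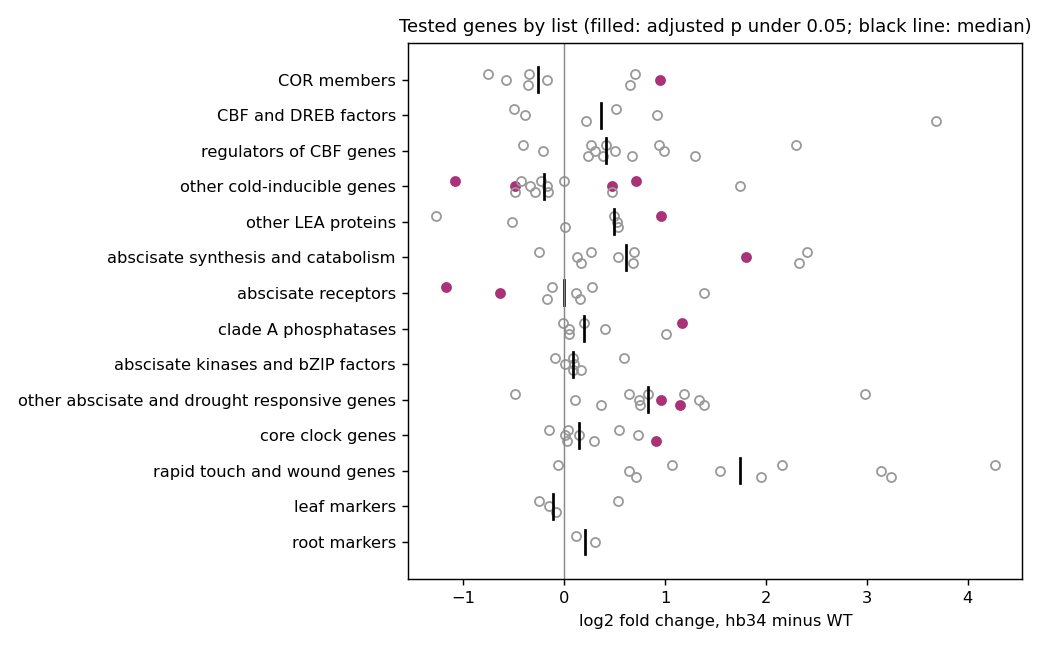
Log2 fold change (x axis, hb34 minus WT) of every tested gene in the COR set and in 13 other gene lists; filled points have an edgeR adjusted p under 0.05 and black lines are list medians. The COR genes spread from -0.75 to 0.95 around a median of -0.26, with RD29A as the filled point.

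The clock is known to gate CBF and COR expression, and touch and wounding raise some of the same genes. Both lists are given as measured values, and their part in the COR results was not tested. Of 11 core clock genes 9 were tested and PRR7, a repressor within the clock, rose from 30.1, 30.5 and 37.6 CPM to 59.9, 57.8 and 66.4 CPM (log2 fold change 0.91, SE 0.134, edgeR adjusted p = 0.0169). GI ranged over 10.9 to 23.9 CPM in WT and over 26.4 to 37.0 CPM in the mutant (edgeR adjusted p = 0.142). The summed clock genes reached 1834 to 2034 CPM in WT against 2377, 1574 and 2298 in hb34 replicates 1, 2 and 3.

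Of the 10 touch and wound genes, all tested, 0 passed with edgeR (5 up and 0 down by an unadjusted p under 0.05), while DESeq2 called 5 higher and limma-voom 0. ERF5 had 5.63 to 7.21 CPM in WT against 7.57, 33.5 and 32.95 in hb34 (edgeR adjusted p = 0.0623). LOX4, a lipoxygenase of jasmonate synthesis, had 9.35 to 10.6 CPM in WT against 19.5, 508.3 and 49.1 in hb34 (log2 fold change 4.26, edgeR adjusted p = 0.0672). LOX4 passed without hb34 replicate 2 (1.78, edgeR adjusted p = 0.0158) and without hb34 replicate 1 (4.80, edgeR adjusted p = 0.0287). ERF5 passed without hb34 replicate 1 (2.38, edgeR adjusted p = 0.00344). Among leaf markers, RCA (0.53, edgeR adjusted p = 0.127) and LHCA1 (-0.25, edgeR adjusted p = 0.206) had the smallest p, and 0 of 4 passed with edgeR, DESeq2 or limma-voom (1 higher at an unadjusted p under 0.05). The 2 tested root markers were SCR (0.30, edgeR adjusted p = 0.336) and SHR (0.12, edgeR adjusted p = 0.767), and neither passed by edgeR (nor by an unadjusted p under 0.05), limma-voom or DESeq2. The SHR value turned to -0.09 without hb34 replicate 2. Whether reads of SCR and SHR came from root tissue was not tested, so they do not measure the share of root. DESeq2, which filters low counts differently, called PYK10 higher (log2 fold change 5.78, DESeq2 adjusted p = 0.00202), and PYK10 was named after its values were seen.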

How the data were processed

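Per the labels' protocols, total RNA gave 6 paired-end Illumina libraries. The authors deposited raw counts per gene over its exons, 1 table per library, per the file headers. The submitters' processing notes list TAIR10, HISAT2 2.1.0 and DESeq2 1.30.1 but no roles, and no source used here gives the counting program, the strand setting or how reads with several matches were treated. For 38187 of 38189 genes the exons fell within the same gene of RefSeq's TAIR10.1, including all 10 COR genes, whose starts and ends were identical.

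Groups come from the sample titles. Counts were used as deposited, reduced by filterByExpr at a minimum count of 10 and a minimum total of 15, scaled by TMM, then tested in edgeR 4.0.16 (R 4.3.3) with its quasi-likelihood F test with genotype as the only term, two-sided, Benjamini-Hochberg adjusted over all 17905 genes tested, at 0.05. They took 99.891% or more of the counts of a library. Standard errors are unshrunk coefficients over root F. TPM were computed from the counts and the exon lengths in the files. No library pair agreed within sampling noise (chi-square per gene of 12.4 or more). Alternatives were DESeq2 1.42.0, limma-voom (limma 3.58.1), 3 other scalings, 2 other filters, robust dispersions, the first 2 Mb of chromosome 2 left out, a replicate block and each library left out in turn. Coding sequences were aligned with Biopython 1.88.

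The COR genes and the 14 other lists (153 genes) were chosen with earlier results of these data known. All COR genes are named, then HB34 and the 2 genes with the smallest p in each list. Windows before genes were to be those of the pairs that differed most and least in fold change; COR15B was left out because its window is an exon of COR15A. SFR2, COR413-PM1, ERD14, CBF1, CBF2, PYK10 and the windows of RD29A and RD29B were chosen after their values were seen. No protein sequences were used here.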

Additional observations from a re-analysis of the deposited data

How the results depend on the processing

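RD29A kept its sign in all 16 alternatives (log2 fold change 0.82 to 1.09) and its call in 12 of them. It was lost without WT replicate 1, 2 or 3 and with a replicate block. The call of ERD1 also ended with the chromosome 2 genes taken out (adjusted p 0.05473), and the block ended the calls of all context genes chosen by rule. COR15A passed in 1 of 16, without hb34 replicate 2. RAB18, COR15B, KIN2, COR47 and ERD10 passed in none of 16 and kept their sign in all, with the lowest adjusted p of 0.0665 for COR47. KIN1 reversed to 0.0211 without WT replicate 3 (range -1.24 to 0.0211 with a library left out) and was not tested with a CPM of at least 1 in 3 libraries. SHR reversed to -0.01145 without WT replicate 1 and to -0.0863 without hb34 replicate 2 (range -0.0863 to 0.283), so neither has a set direction.

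COR genes called higher numbered 0 with a replicate block and 0 to 1 with a library left out; those called lower numbered 0 to 1 with a library left out. Over all genes, 1651 were higher and 1010 lower with DESeq2, 383 higher with the genes of the first 2 Mb of chromosome 2 taken out (247 tested, 153 of them among the 675 higher), and 2 higher and 3 lower with a replicate block. With a library left out, 1 to 853 were higher and 2 to 503 lower. The cause of these shifts was not tested. The labels give no batch. Deviations of same-numbered libraries correlated at -0.263 to -0.0972, and 0 of 6 libraries correlated best with its own number. With 3 libraries per group these values cannot settle whether same-numbered libraries were paired. Upper quartile scaling moved the log2 fold changes of all genes by a median of -0.091. Depth limits RD29B, LTI30 and KIN1, at 0 to 20 counts a library.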
